A study of Mus musculus with 8 samples.

Results

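On chromosomes 6, 8 and 11, 4 windows of 200 kb held the most crowded accessible DNA of NIH3T3 fibroblasts, with 45 to 91 peak regions each where the median window had 5. They were chr6:114400001-114600000, chr8:126000001-126200000, chr8:19800001-20000000 and chr11:3000001-3200000 on the mouse build mm9. Peaks of all 4 libraries that shared at least 1 bp were merged into 45915 regions, and the 248 regions with their midpoint in one of the windows are described here. The windows had been chosen by their number of peaks in these lists, so that number is a description and supports nothing else. In 2 of the windows, most regions with a peak in every library turned out to stand at even distances. The distance was about 1.7 kb in one and about 2.4 kb in the other, where the spacing over all regions was less even. The other 2 windows had uneven spacing and a few very tall summits.

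The data are ATAC-seq libraries of NIH3T3, an immortalised mouse embryo fibroblast line grown with newborn calf serum, after 24 h of culture on G2 (2 libraries) or on G128 (2 libraries). What G2 and G128 abbreviate is not stated in the labels. The series concerns hydrogels of polyvinyl alcohol and gelatin and the adhesion of cells. No source states whether replicates are separate cultures, and the p-values then measure only the spread between these libraries, which may be technical. RNA libraries, of which there are 4, were not analysed.

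In ATAC-seq the Tn5 transposase inserts adapters into DNA that nucleosomes leave exposed, and a peak is a place where many inserted fragments overlap. A peak caller compares each place with a background, so a stretch of DNA that gives many reads along its length can be listed as a wide peak or as many peaks. The mouse genome also holds long arrays of repeated units, and reads of such units can align equally well to several places. The sources used here do not give the treatment of such reads. A peak list holds no reads from between the peaks, so the number of DNA copies of these windows was not measured, and the windows are called peak-dense here. What genes or repeats lie in them was not annotated, because no mm9 sequence or annotation was used here.

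Heights are given as the summit over the background. This is the number of overlapping intervals at the highest point of a region, divided by the library's mean background, and both numbers were recovered from the deposited p-values. The background mean was 1.10 and 1.37 intervals per bp in G2 replicates 1 and 2, and 1.05 and 1.41 in G128 replicates 1 and 2. The weakest listed summit was 18.2 to 18.97 times the background in the 4 libraries. The G2 lists held 42358 and 41585 peaks, and the G128 lists 32540 and 37695. In the 27768 regions of the genome with a peak in all 4 libraries, the median summit was 67.3 and 68.7 times the background on G2 and 50.3 and 58.1 times on G128. A scaled summit is the log2 summit over the background minus the library's own median over these regions.

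The chromosome 6 window had 91 regions, the most among the 7263 windows of 200 kb that held any region. The distal window of chromosome 8, from 126000001, came second with 65, followed by the chromosome 11 window with 47. The proximal window of chromosome 8, from 19800001, had 45 regions, as many as a window on chromosome 19 from 5.8 to 6 Mb, and the next window, on chromosome 3 from 89 to 89.2 Mb, had 39. Merged regions covered 74.8 kb of the chromosome 6 window and 67.4 kb of the chromosome 11 window. They covered 51.9 kb of the distal and 25.2 kb of the proximal chromosome 8 window.

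**Figure D1:**
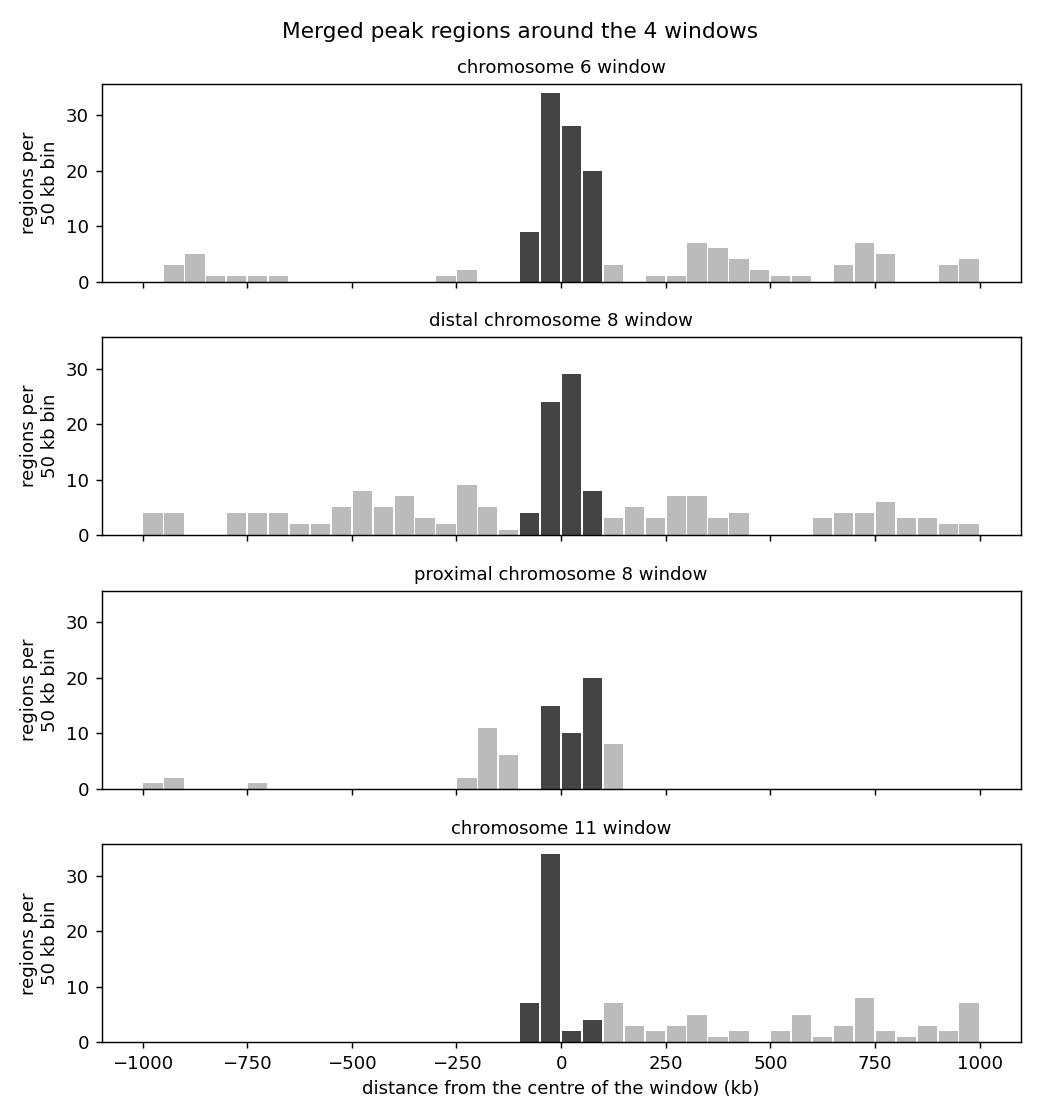
Number of merged peak regions per 50 kb bin (y axis) against the distance from the centre of each window (x axis, kb), with bins of the window in dark grey and its surroundings in light grey. The 34 regions of the fullest bin on chromosome 6 and on chromosome 11 stand beside near bins with few or no regions, and no region lies left of the chromosome 11 window.

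The dense stretch on chromosome 6 began and ended at nearly the same base in every library. A stretch was taken as a chain of regions with gaps of at most 20 kb. The stretch was chr6:114440371-114593447, 153 kb long, and held all 91 regions of the window. Before it lay 145 kb without any region, and after it 32.7 kb. The first base of the stretch was 114440381 and 114440379 from the peaks of the G2 libraries alone, and 114440373 and 114440371 from those of the G128 libraries. Its last base was 114593447 in both G2 libraries and 114593445 in both G128 libraries. The last region, chr6:114592860-114593447, stood apart, after the largest gap in the stretch, which was 5689 bp. The nearest regions outside, at chr6:114295261-114295424 and chr6:114626172-114626325, were weak peaks of G2 replicate 1 alone, at 24.6 and 22.7 times the background. Within 1 Mb there were 17 regions before the stretch and 51 after it.

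The distal chromosome 8 window held a dense core with open space on both sides. With gaps of at most 20 kb the stretch was chr8:126040518-126185621, 145 kb long with 63 regions. With gaps of at most 10 kb it shrank to chr8:126062326-126153512, which was 91.2 kb long and held 55 of the 65 regions, and this part is called the core. The core started at 126062352 and 126062383 in the G2 libraries and at 126062388 and 126062326 in the G128 libraries. A gap of 18.9 kb lay before the core and one of 14.4 kb after it. The surroundings held more regions on both sides than those of chromosome 6, with 80 regions within 1 Mb before the core and 67 after it.

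The other 2 stretches had less even borders or lay at the edge of the listed sequence. The proximal chromosome 8 stretch, chr8:19855358-19991111, was 136 kb long and held all 45 regions of the window. From the peaks of single libraries it was 72.8 and 70.7 kb long in the G2 libraries, and 99.0 and 70.7 kb in the G128 libraries. Tall regions stood at both its sides. One at chr8:19783992-19785646 had summits of 1549 and 1523 times the background on G2 and 1107 and 1230 times on G128. The other, at chr8:20019175-20020972, had 1392 and 1366 times on G2 and 999 and 1107 times on G128. With gaps of up to 50 kb the stretch ended at 20032916, and the next region lay 3138 kb further on. On chromosome 11 the stretch chr11:3023212-3103367, 80.2 kb long with 43 of the 47 regions, began with the first listed region of that chromosome. It was followed by 62.3 kb without a region. Its regions covered 78.3% of its length, against 48.9% of the chromosome 6 stretch, 51.2% of the distal chromosome 8 core and 18.6% of the proximal chromosome 8 stretch.

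Regions of the distal chromosome 8 core stood at a nearly constant distance. Between the midpoints of the 52 core regions with a peak in all 4 libraries, the median distance was 1702 bp, and 44 of the 51 distances lay within 10% of it. In one run, 30 successive distances did so. Summits gave the same spacing in each library taken alone, with medians of 1692 and 1697 bp in the G2 libraries and 1697 and 1688 bp in the G128 libraries. The gaps between regions, whose median was 808 bp, were about as long as the regions themselves, whose median width over the window was 873 bp.

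A single period described most of the core. The fit of a period was measured by a resultant, which is 1 when all midpoints fall on multiples of the period from one another. For a fixed period it is near 0 when many midpoints are scattered, but the best of all periods scanned is not. In the other dense windows described below, the best was 0.447 to 0.657. Among periods of 400 to 5000 bp, 1697 bp fitted best, with a resultant of 0.941. The best period of the summits was 1697 and 1696 bp in the G2 libraries and 1696 and 1697 bp in the G128 libraries. It was 1693 bp over the first 26 regions and 1703 bp over the last 26. The last region of the core stood apart from this, 5470 bp after the one before it among the regions of all 4 libraries.

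On chromosome 6 the spacing was longer and less strict. Midpoints of the 68 regions with a peak in all 4 libraries were 2378 bp apart in the median, and 46 of the 67 distances lay within 10% of that. The longest run of such distances was 10. The best period was 2441 bp with a resultant of 0.675, and over the 4 libraries it ranged from 2438 to 2443 bp. Summits of single libraries were less even, with medians of 2130.5 and 2320 bp on G2 and 2062 and 2122.5 bp on G128. Within 10% of these lay 19.5% and 59.0% of the distances on G2 and 17.4% and 16.7% on G128. The resultants were 0.521 and 0.610 on G2 and 0.538 and 0.526 on G128. Over all 91 regions the median was 1732.5 bp, with 12.2% within 10% and a resultant of 0.430. Among the 68 regions, the best period was 2398 bp with a resultant of 0.740 over the first 34 and 2455 bp with 0.899 over the last 34. The later part of the stretch was the more even one.

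**Figure D2:**
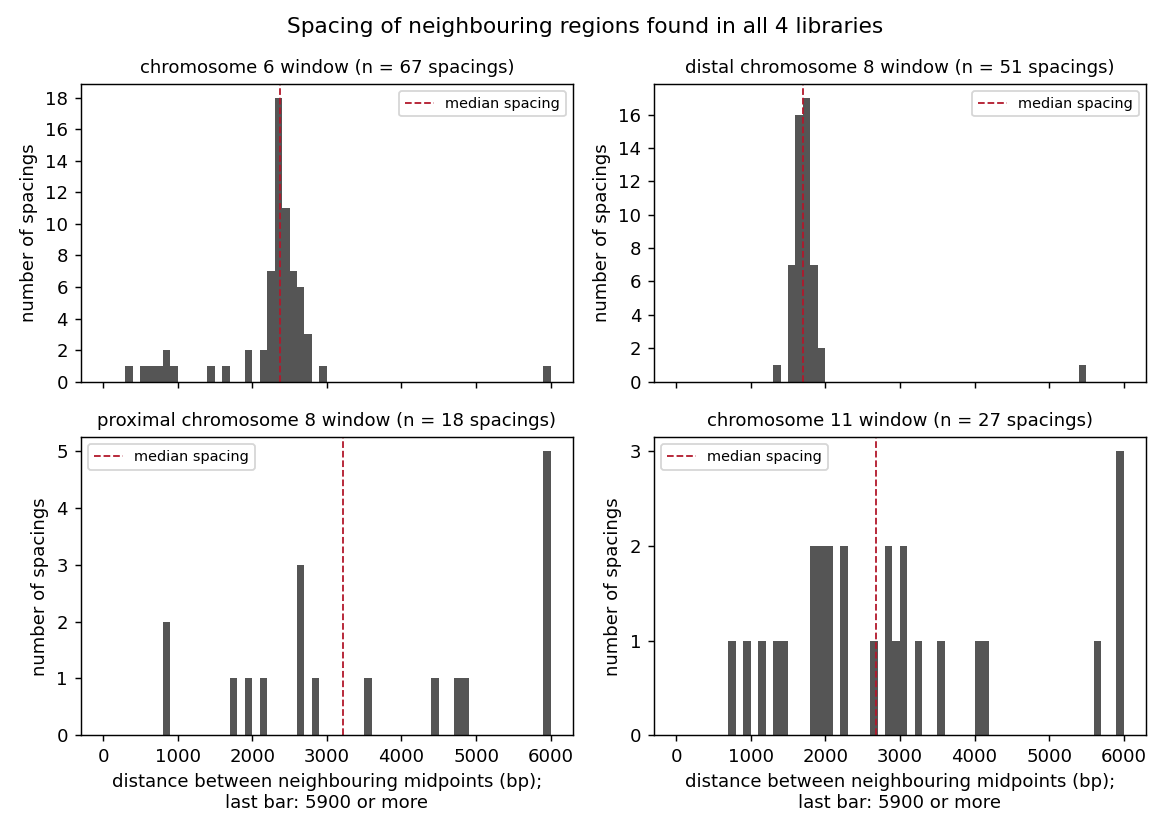
Number of spacings (y axis) by the distance between the midpoints of neighbouring regions with a peak in all 4 libraries (x axis, bp, bins of 100 bp), with the median as a dashed line. Distances gather near 1702 bp in the distal chromosome 8 core and near 2378 bp on chromosome 6, and spread widely in the other 2 windows.

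The proximal chromosome 8 and chromosome 11 windows showed no such spacing. Of 18 distances on proximal chromosome 8, 0 lay within 10% of their median of 3222 bp, and on chromosome 11 it was 3 of 27 distances around 2682 bp. The best periods differed between libraries, from 428 to 1040 bp on proximal chromosome 8 and from 484 to 680 bp on chromosome 11. For comparison, 41 other windows of the genome held at least 30 regions. Between their regions with a peak in all 4 libraries, the share of distances within 10% of the median was 0 to 31.0%, with a median of 10.5%. By the same measure it was 76.3% in the whole distal chromosome 8 window, 86.3% in its core and 68.7% on chromosome 6. The resultant of the whole distal window was 0.817. In the other dense windows the resultants were 0.447 to 0.657 over 13 to 30 midpoints each, fewer than in the evenly spaced stretches. These are descriptions without a test, since neighbouring regions are not independent.

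Summits in the evenly spaced stretches were also of even height. In the distal chromosome 8 core, 49 and 46 of 52 regions lay within 1.5-fold of the library's median summit on G2, and also 49 and 46 on G128. On chromosome 6 it was 53 and 53 of 68 regions on G2 and 56 and 56 on G128. Over all 27768 regions with a peak in all 4 libraries, 37.4% and 36.6% did so on G2 and 38.9% and 38.5% on G128. The SD of the log2 mean summit was 0.41 in the distal chromosome 8 window and 0.47 on chromosome 6. It was 1.15 on proximal chromosome 8 and 1.48 on chromosome 11, where the genome had 1.06.

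The summits of the chromosome 6 stretch were of middling height. Its highest region, chr6:114453990-114455307, reached 106 and 95.0 times the background on G2, and 72.1 and 110 times on G128. The next was chr6:114495163-114496450, with 84.6 and 92.1 times on G2 and 71.1 and 89.3 times on G128. Another, chr6:114478063-114479367, had 90.1 and 81.8 times on G2 and 64.5 and 97.8 times on G128. In all of them the G128 libraries lay on either side of at least one G2 library. The widest region, chr6:114492376-114494138, was 1763 bp wide and had 66.4 and 73.8 times on G2 and 73.0 and 77.9 times on G128. Both ends of the stretch differed from one another, with 22.7 and 31.4 times on G2 and 28.5 and 29.8 times on G128 at the first region, which was 115 bp wide. The last region had 71.0 and 80.4 times on G2 and 56.9 and 85.7 times on G128.

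In the distal chromosome 8 window the highest summits lay outside the evenly spaced core. The region chr8:126042370-126043435, before the core, had 156 and 130 times the background on G2 and 103 and 127.5 times on G128. After the core, chr8:126177203-126177841 had 128.3 and 133 times on G2 and 79.7 and 94.2 times on G128, so that both G2 libraries were above both G128 libraries. Within the core the highest was chr8:126113202-126114110, with 73.7 and 82.6 times on G2 and 78.7 and 82.2 times on G128. The widest region, chr8:126074207-126075677 with 1471 bp, had 64.6 and 78.2 times on G2 and 64.5 and 65.2 times on G128. The core thus had a low ceiling: its highest summit in any library was 77.3 and 82.6 times on G2, and 78.7 and 96.4 times on G128.

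On proximal chromosome 8 a single region stood far above the rest. It was chr8:19891888-19893730, with summits of 702 and 792 times the background on G2 and 543 and 580 times on G128. The widest region, chr8:19923664-19927204 with 3541 bp, had the opposite order, with 93.7 and 86.2 times on G2 and 123 and 106 times on G128. By the authors' signal it ranked 116 and 183 in the G2 lists and 16 and 34 in the G128 lists. Another, chr8:19982381-19983421, had 99.2 and 104 times on G2 and 78.7 and 99.2 times on G128. Most other regions were near the caller's limit, and the median over the 19 regions with a peak in all 4 libraries was 30.9 and 30.7 times on G2 and 34.1 and 31.9 times on G128.

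The chromosome 11 stretch mixed tall summits with wide, lower regions. Its tallest region, chr11:3091822-3094870, reached 1255 and 1235 times the background on G2 and 949 and 1062 times on G128. The first region of the chromosome, chr11:3023212-3024466, had 1090 and 1063 times on G2 and 853 and 985 times on G128. At chr11:3052359-3054649 the summits were 698 and 709 times on G2 and 552 and 587 times on G128. All 3 were higher in both G2 libraries than in both G128 libraries before scaling. How many regions of the genome had that order before scaling was not counted. Over the genome, the mean difference before scaling, G2 minus G128, was below 0 in 9.96% of the regions with a peak in every library. The widest region, chr11:3026964-3038112, was 11149 bp long and had 144 and 132 times on G2 and 151 and 146 times on G128. It was called as 2 and 3 peaks on G2 and as 1 and 4 peaks on G128. In this window 21 of the 47 regions (44.7%) were split into several peaks in at least 1 library, against 10.4% over the genome. On chromosome 6 it was 24.2% of the regions, on proximal chromosome 8 13.3% and on distal chromosome 8 4.62%.

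**Figure D3:**
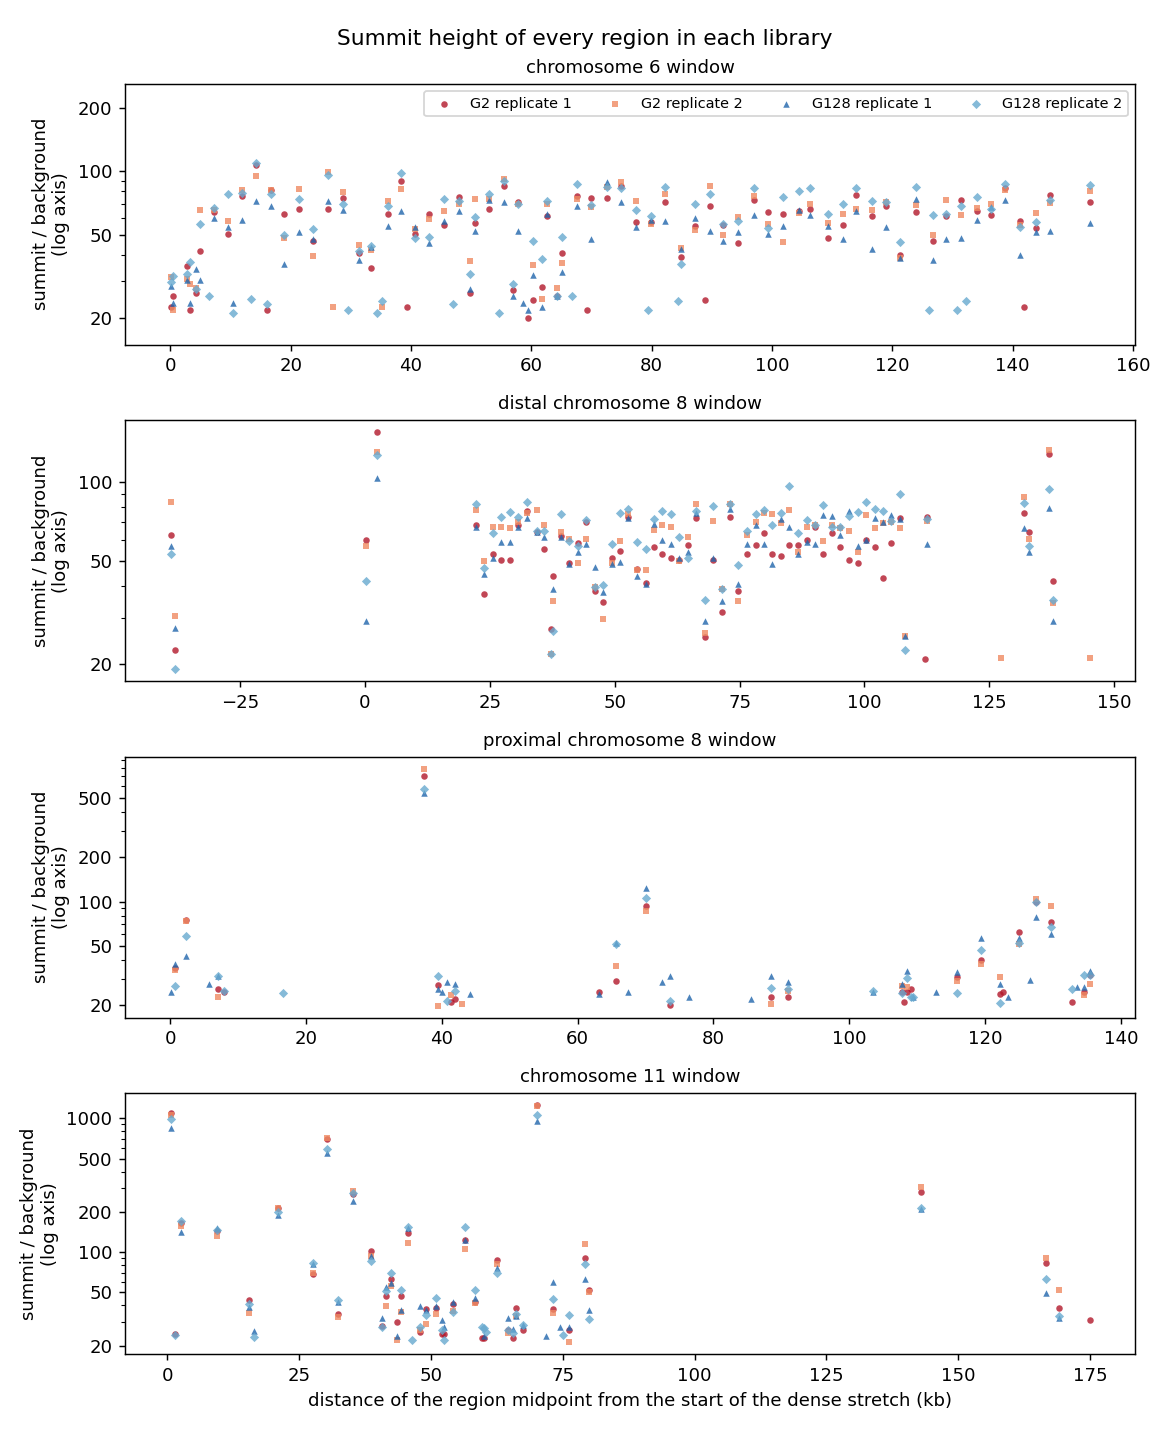
Summit over the background (y axis, log scale) of every region in each library against the distance of its midpoint from the start of the dense stretch (x axis, kb), one panel for each window. The chromosome 6 stretch and the core on distal chromosome 8 form a flat band that reaches at most 110 times the background, and the other windows have single summits of over 500 times.

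Most members had a peak in every library, with proximal chromosome 8 as the exception. Of the 248 regions, a peak in all 4 libraries was present in 60 of 65 on distal chromosome 8, 68 of 91 on chromosome 6, 31 of 47 on chromosome 11 and 19 of 45 on proximal chromosome 8. Over the genome 60.5% of regions had one. The regions not in all libraries were narrow, with median widths of 111 to 221 bp, and none had a summit above 32.2 times the background. A single member (1 of 248) was found on G2 alone, meaning a peak in each G2 list and none in the G128 lists, where 8.32% of all regions were. It was chr8:19896653-19896811, with 20.9 and 23.4 times the background. G128-only regions numbered 5, and over the genome they made up 0.370% of regions. Of these, 3 lay on proximal chromosome 8, among them chr8:19958754-19959051, whose G128 summits were 24.7 and 24.8 times the background. Another at chr8:19964608-19964821 had 22.8 and 22.7 times, and chr6:114450743-114450928 had 23.7 and 21.3 times. On chromosome 11, chr11:3039477-3039677 had 25.6 and 23.4 times.

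Peaks found in a single library belonged mostly to G128 libraries on chromosome 6 and proximal chromosome 8. In the proximal window, 12 of the 45 regions had a peak in G128 replicate 1 alone, and over the genome 0.621% did. On chromosome 6, 12 of the 91 regions had one in G128 replicate 2 alone, against 2.27% over the genome. In these windows the G2 libraries alone gave few, with 4 and 1 regions on chromosome 6 and 2 and 1 on proximal chromosome 8, where the genome had 6.14% and 6.46%. The distal chromosome 8 window had 1 and 2 such regions in the G2 libraries and 0 and 0 in the G128 libraries. The G2 counts were 1.54% and 3.08% of its 65 regions, also below the shares over the genome. On chromosome 11 there were 1 and 0 in the G2 libraries and 2 and 3 in the G128 libraries. G128 replicate 1 has the shortest list and G128 replicate 2 the highest background mean, and their part in these counts was not tested. For proximal chromosome 8 the 4 lists held 33 and 23 peaks on G2 and 41 and 29 on G128. On distal chromosome 8 they were nearly equal, with 64 and 64 on G2 and 62 and 65 on G128. Chromosome 6 had 83 and 79 peaks on G2 and 93 and 85 on G128, and chromosome 11 had 63 and 47 on G2 and 46 and 56 on G128.

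Summits of the dense windows were about as high on G2 as on G128, while those of the genome stood higher on G2. Before scaling, the median summit of the 68 chromosome 6 regions was 62.3 and 65.0 times the background on G2 and 53.1 and 68.4 times on G128. In the distal chromosome 8 core it was 55.0 and 66.5 times on G2 and 58.3 and 71.9 times on G128, and over the chromosome 11 window 62.8 and 56.3 times on G2 and 58.8 and 63.1 times on G128. In these the groups overlapped. Within the chromosome 11 stretch alone, both G2 libraries were below both G128 libraries, with 57.3 and 53.3 times on G2 and 59.3 and 61.3 times on G128. On proximal chromosome 8 both G2 libraries lay slightly below both G128 libraries (30.9 and 30.7 against 34.1 and 31.9 times). The median difference between G2 and G128 over all 27768 regions was 0.34 on the log2 scale before scaling and 0.01 after it, so differences below are relative to that shift.

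Relative to the genome, both G2 libraries lay below both G128 libraries in all 4 windows. On chromosome 6 the median scaled summit was -0.11 and -0.08 on G2 and 0.08 and 0.23 on G128. On distal chromosome 8 it was -0.26 and -0.05 on G2 and 0.20 and 0.30 on G128. On proximal chromosome 8 it was -1.12 and -1.16 on G2 and -0.56 and -0.87 on G128, and on chromosome 11 it was -0.10 and -0.29 on G2 and 0.23 and 0.12 on G128. The differences of the group means, G2 minus G128, were -0.25 on chromosome 6, -0.40 on distal chromosome 8, -0.43 on proximal chromosome 8 and -0.37 on chromosome 11. Each gave p = 0.3333 in a two-sided exact permutation test over the 6 assignments of libraries, which is the smallest p possible with 2 against 2 libraries. Without the scaling the difference was 0.08 on chromosome 6, -0.07 on distal chromosome 8, -0.10 on proximal chromosome 8 and -0.04 on chromosome 11. With the regions of mean summit 40 times the background or more it was -0.02 on proximal chromosome 8 and -0.15 on chromosome 11.

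In 3 of the 4 windows the regions around the dense stretch showed a much smaller difference, or one of the other sign. Flanks were taken as all regions with a peak in all 4 libraries within 1 Mb of a window and outside its core. The 40 flanking regions of chromosome 6 had medians of -0.11 and -0.10 on G2 and -0.20 and -0.17 on G128, so the order of the groups was the other way round. The 101 on distal chromosome 8, which include 8 of the window itself, had -0.04 and -0.10 on G2 and 0.05 and -0.04 on G128. The 50 on chromosome 11, which include 3 of the window itself, had -0.06 and 0.05 on G2 and 0.03 and 0.03 on G128. The core minus its flanks differed between G2 and G128 by -0.33 on chromosome 6, -0.35 on distal chromosome 8 and -0.42 on chromosome 11 (exact permutation p = 0.3333 for each, the smallest possible). On proximal chromosome 8 the 26 flanking regions, which include 9 of the window itself, behaved like the core, with -0.98 and -1.02 on G2 and -0.44 and -0.76 on G128. There the core minus its flanks differed by -0.04.

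**Figure D4:**
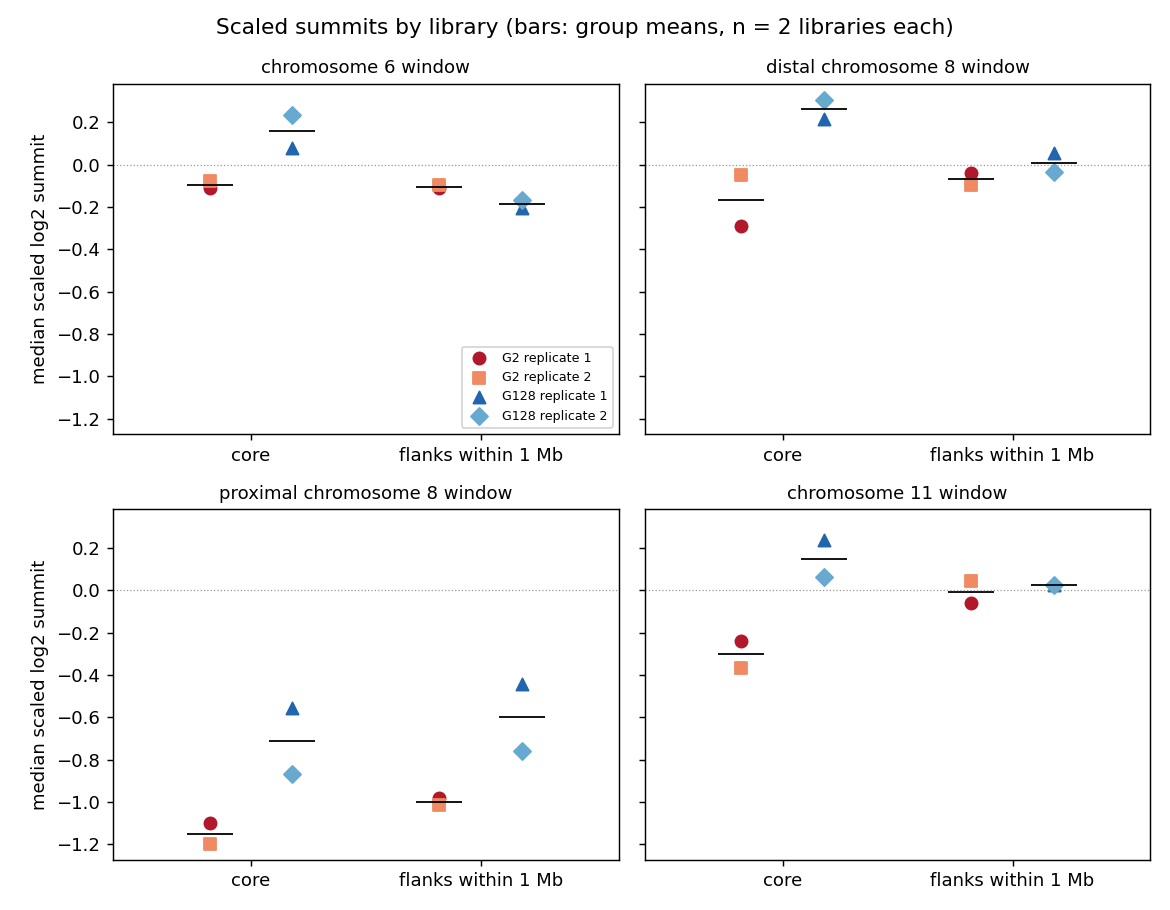
Median scaled log2 summit (y axis) of the regions with a peak in all 4 libraries, by library, in the core of each dense stretch and in its flanks within 1 Mb. Bars are group means of 2 libraries. Both G2 libraries lie below both G128 libraries in all 4 cores, at -0.29 and -0.05 against 0.21 and 0.31 on distal chromosome 8.

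No single region passed limma in its main setting, which used a common spread, no replicate block and adjustment over the whole genome. limma was fitted to the scaled summits of all 27768 regions with a peak in all 4 libraries, of which 178 were members. At an adjusted p under 0.05 it called 0 members and 0 of all regions (0%). At an unadjusted p under 0.05, 93 of the 178 members were lower on G2, against 8.67% of all regions, and 1 member was higher, against 5.57%. The scaled difference was below 0 in 164 of the 178 members and in 47.8% of all regions. Medians of the difference were -0.28 on chromosome 6, -0.41 on distal chromosome 8, -0.48 on proximal chromosome 8 and -0.36 on chromosome 11, beside 0.01 over all regions. In 131 of the 178 members both G2 libraries lay below both G128 libraries, which was so in 21.9% of all regions. The reverse order was seen in 5 of the 178 members and in 23.8% of all regions.

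The count of called regions depended on the settings of limma, among them the estimate of the spread. Counts under the other settings are given below, with the dependence on processing. When the spread was allowed to follow summit height, a setting added after the data were seen, 15 members were lower on G2 at an adjusted p under 0.05, against 0.864% of all regions, and 0 were higher, against 0.601%. These 15 comprised 7 regions of distal chromosome 8, 4 of chromosome 11, 3 of proximal chromosome 8 and 1 of chromosome 6.

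The 3 members with the greatest differences were singled out after their values were seen. In the proximal window, chr8:19920306-19921717 had summits of 29.1 and 36.5 times the background on G2 and 52.2 and 51.7 times on G128. Its scaled difference was -1.003 ± 0.16 (SE), and the limma adjusted p was 0.0741 with the common spread and 0.00305 with the spread following height. Next came chr11:3095551-3097143, with 37.3 and 35.1 times on G2 and 59.8 and 44.6 times on G128, a scaled difference of -0.85 ± 0.20 (SE). Its limma adjusted p was 0.120, and 0.0195 with the spread following height. In the distal chromosome 8 core, chr8:126131842-126132753 had 52.8 and 59.2 times on G2 and 74.9 and 81.5 times on G128, a scaled difference of -0.82 ± 0.14 (SE). Its limma adjusted p was 0.0741, and 0.00412 with the spread following height. In all 3 regions both G2 libraries lay below both G128 libraries before scaling as well, which their choice by greatest difference made likely. The share of all regions with this order before scaling was not counted. At the other end, chr8:126040518-126040976, the first region of the wider stretch and outside the core, had 60.04 and 57.0 times on G2 and 29.4 and 41.8 times on G128, a scaled difference of 0.41 ± 0.15 (SE, limma adjusted p = 0.272).

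**Figure D5:**
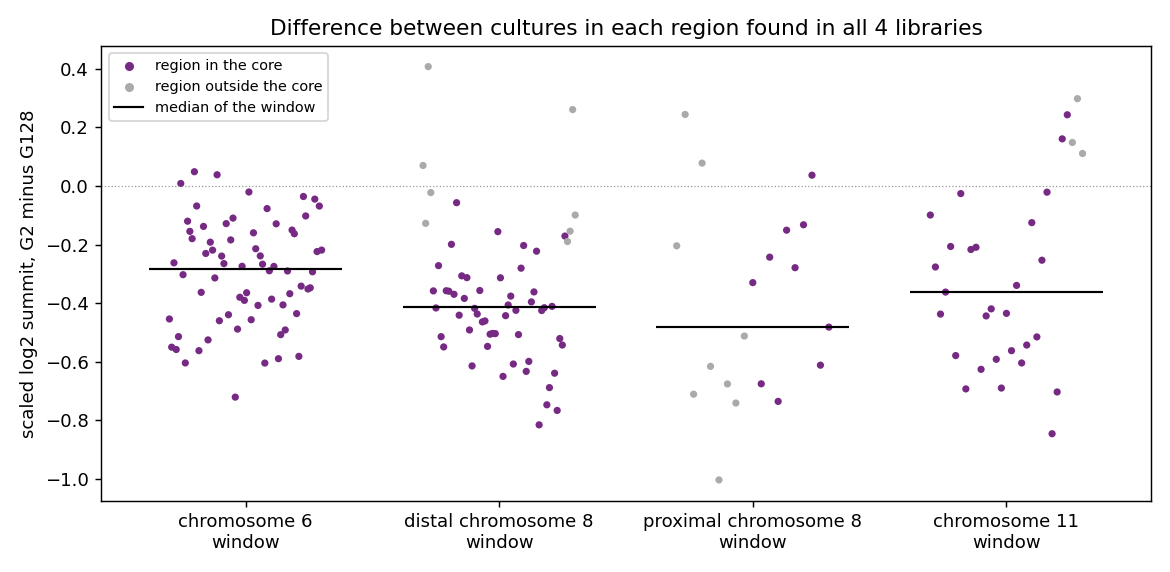
Scaled log2 summit of G2 minus G128 (y axis) for each region with a peak in all 4 libraries, in order along each window, coloured by whether it lies in the core of the stretch, with the window's median as a line. All 52 core regions of distal chromosome 8 are below 0, window medians are -0.28 to -0.48, and 8 of the 14 regions above 0 lie outside a core.

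Among the tallest summits the differences varied between windows. The 3 tallest on chromosome 11 had scaled differences of -0.02 ± 0.14, -0.10 ± 0.14 and -0.03 ± 0.14 (SE), and the tallest on proximal chromosome 8 had 0.08 ± 0.14 (SE), with limma adjusted p-values of 0.962, 0.792, 0.954 and 0.848. The 3 tallest on chromosome 6 had scaled differences of -0.15, -0.18 and -0.22. On distal chromosome 8 the values of the 3 tallest were -0.02, 0.26 and -0.38, and the next 2 tallest on proximal chromosome 8 had -0.68 and -0.13. None of these passed limma at an adjusted p under 0.05 in the main setting. With the spread following height, only chr8:19923664-19927204 (-0.68) passed, at a limma adjusted p of 0.00974. The genome itself showed a dependence on height. Outside the windows, the median difference was -0.11 for mean summits under 40 times the background, 0.02 for 40 to 100 times and 0.07 for 100 times or more. Members lay below in each class, with medians of -0.48 over 37 regions, -0.36 over 127 and -0.15 over 14. In the middle class, which holds most of the evenly spaced regions, 117 of 127 members were below 0, against 47.4% of the other regions.

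Within a window the libraries ranked the regions alike. Spearman's rho of the summits between pairs of libraries was 0.55 to 0.73 over the 52 regions of the distal chromosome 8 core and 0.78 to 0.86 over the 68 of chromosome 6. It was 0.72 to 0.89 over the 19 of proximal chromosome 8 and 0.89 to 0.99 over the 28 of the chromosome 11 stretch. These regions share libraries and neighbours, so the values are descriptions. Summit positions lay close together in most regions. In regions with exactly 1 peak in each library, the range of the summit position over the 4 libraries had a median of 57 bp over 50 regions of the distal chromosome 8 core and of 34.5 bp over 46 regions of chromosome 6. The median was 37 bp over 11 regions of the chromosome 11 stretch and 67 bp over 14 regions of proximal chromosome 8, where the widest range was 2106 bp.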

How the data were processed

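ATAC-seq peak lists of 4 NIH3T3 libraries were used, grouped by the sample titles. Per the submitters' processing notes, the tools included Bowtie2 2.2.5, SAMtools 1.7 and Genrich 0.5, with build mm9. The role and settings of each, and the handling of duplicates and of reads with several alignments, are not given in the sources used here. The authors deposited 1 list per library with a score, a signal of at least 20.0, −log10 p-values and q-values, and a summit offset for each peak. The deposited signal was used only to rank peaks within a list, and the deposited score and −log10 q-value enter no result.

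Each summit's pileup was worked out from its deposited −log10 p-value. Normal quantiles of the lowest 100 distinct p-values of a list followed a straight line in the log of consecutive integers (error of 1.45e-07 to 1.58e-07 at the best start, 0.00164 or more at the next). All pileups lay within 0.00179 of a whole number. The form is that of a log-normal background with 1 mean per library, and no interval for the depth beyond these counts was given.

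Peaks sharing 1 bp were merged. limma 3.58.1 in R 4.3.3 was fitted to scaled log2 summits of all regions with a peak in all 4 libraries, with Benjamini-Hochberg adjustment. Window medians were compared by exact permutation. The recovery of pileups, the search for a period and the limma fit were tested on simulated data. Python 3.11.15, numpy 2.4.6, scipy 1.17.1 and pandas 2.3.3 were used. Replicate numbers were not used to pair the libraries in the main fit, since nothing in the labels says that they do.

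The windows, members and lists were chosen with earlier results of these data known. Regions named were, in each window, the 3 highest and the widest, up to 2 of a single group in each direction, and those at the ends of the stretch and next to it. Genes and sequences are not given, since the tables at hand are of another build.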

Additional observations from a re-analysis of the deposited data

How the results depend on the processing

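Alternatives concerned scaling, summit threshold, peaks per list, overlap, gap length, the replicate block and single libraries. The trend of the spread and the core alone were added after the data were seen. Of the differences between cultures, that of chromosome 6 turned to 0.079 without scaling and to 0.12 with the deposited −log10 p, and those of the other windows kept their sign under all alternatives tried. Without each library in turn the difference was -0.33 to -0.17 on chromosome 6, -0.51 to -0.30 on distal and -0.58 to -0.28 on proximal chromosome 8, and -0.46 to -0.27 on chromosome 11.

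In limma, where 0 regions were called, omitting the scaling gave 5869 higher and 68 lower regions of the genome, with 5 members higher and 2 lower. Keeping regions with mean summits of 40 times or more gave 27 and 29, with 2 members lower and fewer regions tested. The spread following height gave 167 and 240, with 15 members lower. Without each library in turn, 0 to 3 were higher and 0 to 15 lower, and 0 members. The correlation of replicate 1 minus replicate 2 between the groups was 0.00279. Whether the replicate numbers pair the libraries is not stated in the labels. The replicate block gave 274 higher and 656 lower, with 38 members lower (2.36% of all regions were), and left the window differences as they were.

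The region count of proximal chromosome 8 was 13 with a p 10 times below the weakest and 18 with a summit of at least 30 times the background. The single G2-only region became 0 with either of these and with equal numbers of peaks, and 2 to 10 without each library. The 5 G128-only regions became 0, 2 and 11 under these settings and 6 to 23 without each library, where fewer lists enter the rule.

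The chromosome 6 stretch of 153 kb was 208.6 kb with gaps of 50 kb, 200 kb in 50 kb bins, 153.069 kb with summits of 30 times, and 153.067, 153.069 and 153.073 kb in G2 replicates 1 and 2 and G128 replicate 1. The distal chromosome 8 stretch was 91.2 kb with gaps of 10 kb, 703.5 kb with 50 kb, 150 kb in bins and 138.0 kb with summits of 30 times. It was 137.97, 137.91 and 137.95 kb in G2 replicate 1 and the G128 libraries, and 137.97 to 145.1 kb without each library. The proximal stretch was 32.4 kb with gaps of 10 kb, 177.6 kb with 50 kb, 200 kb in bins and 70.7 kb with summits of 30 times. It was 72.8, 70.7, 99.0 and 70.7 kb in the single libraries and 99.2 to 135.8 kb without each library. The chromosome 11 stretch was 100 kb in bins, 80.131, 80.107 and 80.124 kb in G2 replicate 1 and the G128 libraries, and 80.133 to 80.156 kb without each library.

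Among regions named, differences turned positive without scaling at the 3 highest of chromosome 6 (0.18, 0.15 and 0.11), at chr8:126042370 (0.31), chr8:126074207 (0.13) and chr8:19982381 (0.20), and at the 3 highest of chromosome 11 (0.31, 0.23 and 0.31). With quantile normalization the last 3 gave 0.11, 0.10 and 0.056. Without single libraries the range was -0.048 to 0.0052 at chr11:3091822, -0.087 to 0.035 at chr11:3052359, -0.35 to 0.044 at chr6:114453990 and -0.17 to 0.12 at chr8:126042370. The cause of these changes was not tested. The depth of the lists, whose weakest summits are 20 to 26 intervals, limits what can be said of regions without a peak.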
